A study of Mus musculus with 27 samples.

Results

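Loss of all 3 cytoplasmic YTHDF readers of N6-methyladenosine (m6A) was compared directly with loss of METTL3, the enzyme that writes the mark, in mouse embryonic stem cells. The comparison uses 4 of the 27 libraries of the series: replicates A and B of the Ythdf1-/-Ythdf2-/-Ythdf3-/- line (the triple knockout) and replicates A and B of the Mettl3-/- line, chosen by their labels. Another 8 stem cell libraries entered the same fit, 2 each of wild type, Ythdf1-/-, Ythdf2-/- and Ythdf3-/-, and serve as reference points. All 12 came from cells on the KH2 background (C57BL/6 x 129/Sv), were kept in serum with LIF, and were sequenced after poly(A) selection. The knockouts are constitutive, and no group restores a deleted gene. The labels do not say which part of each gene was deleted or whether a genotype is 1 clone. Nor do they say whether replicates A and B were separate cultures. The p-values below thus hold no known spread between cultures or clones, and rest largely on counting error. A Poisson test, added after the data were seen, called 2295 genes between the knockouts, against 2272 in the main test.

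m6A is a methyl group that a nuclear complex adds to adenosines of mRNA. METTL3 is its catalytic subunit, METTL14 its partner, and WTAP and RBM15 help to recruit it to RNA. In the cytoplasm YTHDF1, YTHDF2 and YTHDF3 bind the mark, and YTHDF2 is best known for bringing the CCR4-NOT deadenylase to methylated mRNAs, which shortens their life. In embryonic stem cells, loss of Mettl3 is known to delay the exit from naive pluripotency. The question is where cells without the mark and cells without its main cytoplasmic readers have the same transcript levels and where they do not.

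The triple knockout libraries held 662520 and 746552 counts assigned to genes, and the Mettl3 knockout libraries 618349 and 859558, within the range of 612598 to 1111764 over all 12. Replicates of each of the 6 groups differed by less than Poisson counting error, with a chi-square per gene of 0.678 for the triple knockout pair and 0.835 for the Mettl3 knockout pair, the lowest and highest of the 6. Libraries of the triple and the Mettl3 knockout differed at 2.81 to 3.11 per gene. Levels are given as CPM, the count scaled to a common library size, and differences as log2 of triple knockout over Mettl3 knockout ± standard error, so that a positive value means more in the triple knockout. Calls rest on edgeR's quasi-likelihood test, at a threshold of 0.05 on p-values adjusted by the Benjamini-Hochberg method across the 11951 genes tested. Both lines expressed the core factors that define stem cells. Pou5f1, which encodes OCT4, stood at 739 and 713 CPM in triple knockout libraries A and B and at 779 and 718 in Mettl3 knockout libraries A and B. Its difference was -0.04 ± 0.07, with a 95% interval of -0.17 to 0.09.

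The lines differed widely. Of the tested genes 2272 were called (19.0%), 1256 higher (10.5%) and 1016 lower (8.50%) in the triple knockout, and the median difference over all tested genes was 0.00. Past 2-fold stood 664 of the higher and 390 of the lower genes, while 558 called genes differed by less than 1.5-fold. At the other end, 4786 genes (40.0%) had a 95% interval that lay wholly within 1.5-fold in either direction. The ± values and 95% intervals of log2 differences use a fitted spread with a median of 0.7057, where Poisson counting error would give 1. They can thus be too narrow, and the numbers of intervals within 1.5-fold, here and below, too high. DESeq2, which assumes a wider spread between replicates, called 678 genes (5.67%), 442 higher (3.70%) and 236 lower (1.97%), of which 677 were among the edgeR calls. With 1 library left out, edgeR called 1455 genes without triple knockout replicate A, 1348 without replicate B and 1330 without Mettl3 knockout replicate B. For the gene groups below, DESeq2 numbers are given with those of edgeR. The numbers called in each group are to be read against these shares over all tested genes. Both lines also differed from wild type, at 2996 called genes (25.1%) for the triple knockout and 3630 (30.4%) for the Mettl3 knockout. Those 2 comparisons share the wild-type libraries, so their values are only set side by side.

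**Figure D1:**
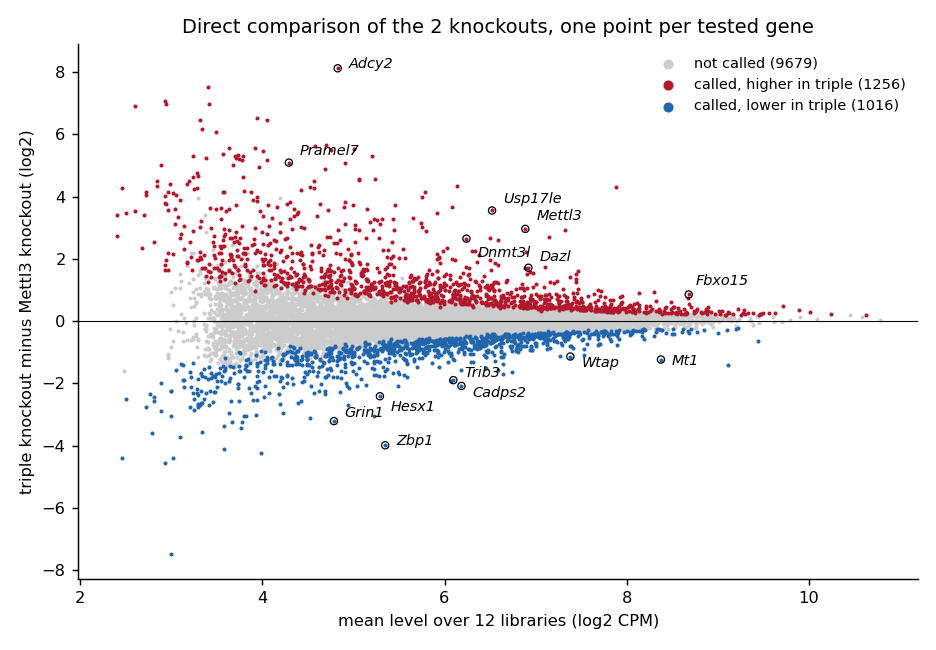
Difference between triple and Mettl3 knockout (log2, vertical axis) against the mean level over 12 libraries (log2 CPM, horizontal axis), 1 point per tested gene. The 1256 called genes with more transcript in the triple knockout are red, the 1016 with less are blue, and the rest are grey; the largest positive values, including Adcy2, are of genes near 0 in the Mettl3 knockout.

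The targeted genes were examined first. Mettl3 (chr14:52294841-52305128, minus strand, GRCm38) stood at 122 and 136 CPM in the triple knockout against 18.1 and 15.2 CPM in the Mettl3 knockout, with 141 and 137 CPM in wild type. The libraries did not overlap, and the difference was 2.96 ± 0.19 (adjusted p = 5.42e-21). Ythdf1 stood at 161 and 162 against 205 and 205 CPM, Ythdf2 at 35.9 and 30.1 against 62.4 and 63.3, and Ythdf3 at 82.7 and 63.0 against 117 and 59.7. In wild type the same 3 transcripts stood at 179 and 173, 26.1 and 25.0, and 73.0 and 66.0 CPM. In its own single knockout Ythdf2 stood lower, at 18.1 and 10.5 CPM. Ythdf1 stood at 174 and 177 CPM and Ythdf3 at 82.0 and 71.8 CPM in theirs. No Ythdf transcript was thus depleted in the triple knockout, including Ythdf2, and the reason was not tested. Since a count over the whole gene can miss a deleted part, these counts do not check the triple knockout label. Ythdf3 did not pass the test (-0.21 ± 0.24, adjusted p = 0.622), but was called without Mettl3 knockout replicate B (-0.69). Ythdf1 was called lower than in the Mettl3 knockout by edgeR (-0.35 ± 0.10, adjusted p = 0.0365), but not by DESeq2 (adjusted p = 0.323). Against the Mettl3 knockout, Ythdf2 was lower by edgeR (-0.94 ± 0.21, adjusted p = 0.00265). The call was lost in DESeq2 (adjusted p = 0.163) and without triple knockout replicate B (-0.81).

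Among the partners of METTL3, Wtap and Rbm15 were higher in the Mettl3 knockout alone. Wtap, the scaffold that holds the complex in nuclear speckles, stood at 143 and 144 CPM in the triple knockout and 347 and 294 CPM in the Mettl3 knockout. Wild type stood at 142 and 144 CPM. The difference was -1.14 ± 0.10 (adjusted p = 2.49e-15). Rbm15, an RNA-binding adaptor of the complex, gave 105 and 107 against 205 and 189 CPM (-0.89 ± 0.12, adjusted p = 3.18e-08), with 91.9 and 89.2 CPM in wild type. DESeq2 called both. The triple knockout did not pass the test against wild type for either gene (0.01 and 0.22, adjusted p = 0.980 and 0.310), whereas the Mettl3 knockout did (1.14 and 1.11, adjusted p = 6.43e-18 and 1.56e-13). Mettl14 stood at 98.3 and 122 against 96.9 and 115 CPM, and Mettl16, a separate m6A methyltransferase, had a 95% interval of -0.14 to 0.27. Of 13 readers and erasers, 1 was called higher and 3 lower (DESeq2: 0 and 1), a share of 30.8% against 19.0% of all tested genes. The higher member was Hnrnpc. The 3 lower were Ythdc1 and the targeted genes Ythdf1 and Ythdf2. Ythdc1, the nuclear reader, stood at 206 and 183 against 312 and 267 CPM (-0.56 ± 0.09, adjusted p = 1.48e-05). Igf2bp1 and Igf2bp2, readers that stabilise mRNA, had intervals of -0.18 to 0.22 and -0.25 to 0.12.

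The decay machinery that acts after the readers was called in 26.7% of its deadenylase genes and 12.5% of its decapping genes, against 19.0% of all tested genes. Of 15 tested genes of the CCR4-NOT deadenylase and its adaptors, 2 were called higher and 2 lower, and of 16 genes of decapping and 5' to 3' decay 2 were called higher and none lower. DESeq2 called 0 genes of the first group and 1 of the second. Btg2, an anti-proliferative adaptor of the deadenylase, stood at 37.4 and 57.5 against 27.9 and 15.2 CPM (1.22 ± 0.26, adjusted p = 0.000806), and Cnot1, the scaffold of the complex, at 31.2 and 27.4 against 50.9 and 55.1 CPM (-0.87 ± 0.22, adjusted p = 0.0117). Both calls were lost without triple knockout replicate B and without Mettl3 knockout replicate B, and with 1 library left out Btg2 ranged from 0.78 to 1.65 and Cnot1 from -0.96 to -0.77. The member DESeq2 called was Pnrc1, a decapping co-activator, at 204 and 209 against 133 and 150 CPM (0.53 ± 0.11, adjusted p = 0.000628). Of the decapping and 5' to 3' decay genes, Lsm3 lay between -0.30 and 0.09, and Xrn2, a nuclear exonuclease, between -0.35 and 0.06.

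The widest separation was in transcripts of the 2-cell embryo. This programme, under the control of the transcription factor DUX, marks zygotic genome activation, and in stem cell cultures a small, changing fraction of cells expresses it. Of 47 listed genes, 35 were in the table, 32 passed the filter on low counts and 31 were higher in the triple knockout, with none lower. DESeq2 called 30 higher. The median difference of the 32 genes was 4.26, and 4.09 when genes at 0 in the Mettl3 knockout were set at their lower bound. A gene can pass the filter through the group in which it is high, so these counts describe the tested genes only. The summed level was 2992 and 2944 CPM in the triple knockout, 366 and 432 in the Mettl3 knockout and 505 and 436 in wild type. The Mettl3 knockout thus lay near wild type, with 0 of the 32 called up and 1 down (over all genes 15.2% up and 15.1% down). A bulk library does not tell more cells in this state from more RNA per cell.

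Usp17le, a deubiquitinase-like gene of a repeated family (chr7:104768049-104777470, minus strand), stood at 289 and 278 CPM in the triple knockout against 21.4 and 25.8 CPM in the Mettl3 knockout. Wild type stood at 18.0 and 12.5 CPM, and the difference between the knockouts was 3.55 ± 0.15 (adjusted p = 5.70e-31). Pramel6 and Pramel7, members of the PRAME family, gave 159 and 141 against 3.29 and 8.20 CPM (4.57 ± 0.27) and 101 and 95.8 against 3.29 and 2.34 CPM (5.09 ± 0.35). Zscan4a, annotated as an unprocessed pseudogene of the family that protects telomeres, gave 109 and 87.6 against 4.93 and 3.51 CPM (4.52 ± 0.33). Usp17la gave 90.5 and 104 against 1.64 and 3.51 CPM (5.08 ± 0.34). In all of these the highest Mettl3 knockout library lay far below the lowest triple knockout library. Where the Mettl3 knockout held only a few counts, the ratio of counts has a wide interval. Tcstv1, a 2-cell transcript, had 97 counts over the triple knockout and 2 over the Mettl3 knockout, a ratio of 51.7 (95% interval 13.9 to 433), and Pramef25 had 102 against 2, a ratio of 54.4 (14.7 to 455). Dux itself did not pass the filter. It had 12 and 8 counts in the triple knockout, 3 and 1 in the Mettl3 knockout and 2 and 1 in wild type; it was named after its counts were seen. The Usp17l, Zscan4, Tcstv, Tdpoz and Pramel families are near-identical copies whose reads the authors' counting may have split, so single values are uncertain and the 31 calls are not 31 independent genes.

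The single reader knockouts, which took no part in this contrast beyond the shared spread, gave a graded picture for the same list. The median of the 32 genes against wild type was 3.15 in Ythdf1-/-, 0.86 in Ythdf2-/- and 2.07 in Ythdf3-/- cells, against 4.15 in the triple and 0.11 in the Mettl3 knockout. Usp17le stood at 152 and 166 CPM in Ythdf1-/-, 28.4 and 33.8 in Ythdf2-/- and 73.6 and 54.5 in Ythdf3-/- cells. For Pramel7 the single knockouts ranged from 2.33 to 10.0 CPM, below both triple knockout libraries.

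**Figure D2:**
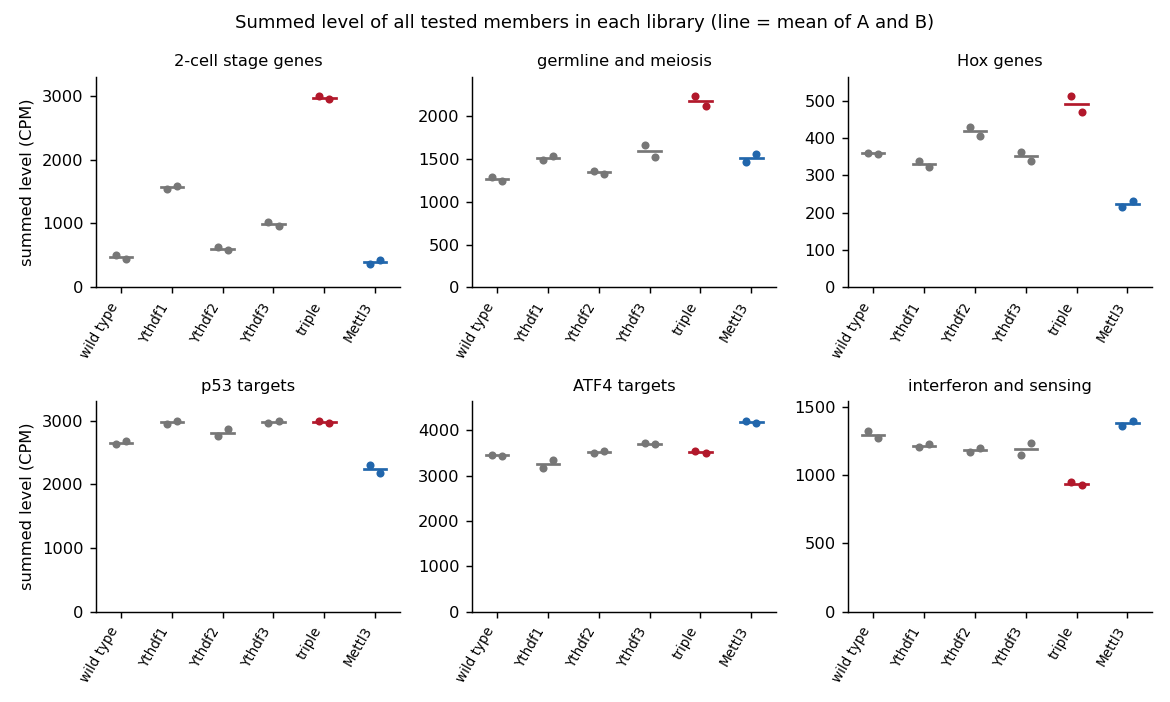
Summed level (CPM, vertical axis, from 0) of all tested members of 6 gene lists in each of the 12 libraries, grouped by genotype along the horizontal axis; points are libraries A and B and lines their mean. The 2-cell sum reached 2992 and 2944 CPM in the triple knockout and 366 and 432 CPM in the Mettl3 knockout, while the ATF4 target sum was highest in the Mettl3 knockout.

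Germline and meiosis genes leaned the same way, with smaller differences. These genes are silenced in somatic and stem cells by DNA methylation and by a Polycomb complex that holds MGA and MAX, which bind the E-box CACGTG. Of 33 listed genes 23 were tested, 13 were higher and 2 lower in the triple knockout (DESeq2: 6 and 0), and their median was 0.76. Dazl, an RNA-binding protein of germ cells (chr17:50279395-50293636, minus strand), stood at 253 and 238 against 75.6 and 73.8 CPM (1.71 ± 0.12, adjusted p = 2.49e-20). Wild type stood at 90.1 and 81.1 CPM. Brdt, a testis bromodomain protein, gave 134 and 127 against 39.4 and 50.4 CPM (1.51 ± 0.16). Hormad1, of the meiotic chromosome axis, gave 161 and 146 against 62.4 and 77.3 CPM (1.10 ± 0.14), and Sycp1, of the synaptonemal complex, gave 84.2 and 98.6 against 32.9 and 41.0 CPM (1.28 ± 0.19). All 4 were called by both tools, and for none did the Mettl3 knockout pass the test against wild type (adjusted p = 0.409, 0.935, 0.812 and 0.643). Stra8, the retinoic acid-induced gatekeeper of meiosis, stood at 221 and 192 against 181 and 182 CPM and did not pass the test (adjusted p = 0.333).

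The promoters of 3 of these genes are shown because each holds that E-box. They are the 250 bases before the RefSeq start site (GRCm38.p6), 5′ to 3′ on the gene's strand, with CACGTG in capitals:
Hormad1, chr3:95559427-95559676, plus strand: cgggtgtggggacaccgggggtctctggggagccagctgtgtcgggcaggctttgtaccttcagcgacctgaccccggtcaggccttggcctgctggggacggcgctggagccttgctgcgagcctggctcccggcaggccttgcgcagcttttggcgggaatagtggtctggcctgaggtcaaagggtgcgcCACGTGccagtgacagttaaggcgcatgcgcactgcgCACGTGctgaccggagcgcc
Brdt, chr5:107330944-107331193, plus strand: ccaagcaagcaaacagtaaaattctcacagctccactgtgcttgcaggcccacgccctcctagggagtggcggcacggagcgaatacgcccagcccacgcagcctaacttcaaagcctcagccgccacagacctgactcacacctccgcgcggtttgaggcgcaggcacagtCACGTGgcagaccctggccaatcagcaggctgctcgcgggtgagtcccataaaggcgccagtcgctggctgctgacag
Sycp1, chr3:102936101-102936350, minus strand: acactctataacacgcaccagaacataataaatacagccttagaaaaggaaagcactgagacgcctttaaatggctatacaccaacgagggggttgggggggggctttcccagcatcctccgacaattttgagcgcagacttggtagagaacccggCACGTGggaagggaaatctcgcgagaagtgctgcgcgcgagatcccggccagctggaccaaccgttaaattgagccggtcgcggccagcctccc
Over the 300 bases from 250 before to 50 after the start, CACGTG, which reads the same on both strands, occurred in 10 of the 21 tested germline genes with a promoter in the table (47.6%), and in 962 of 9050 tested genes (10.6%). It was present in 7 of 12 members higher in the triple knockout and in 3 of 7 that were not called. In Hormad1 it began 57 and 20 bases before the start, in Brdt 78 and in Sycp1 94 bases before it. A match is a run of letters and does not show that a factor binds there.

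Genes of the oocyte and of DNA methylation were examined next. Of 10 tested oocyte and maternal genes 5 were higher and none lower in the triple knockout (DESeq2: 3 and 0; median 0.55). One of the 5 is Pramel7, also counted above. Sohlh2, a transcription factor of early oocytes, stood at 106 and 107 against 54.2 and 37.5 CPM (1.26 ± 0.17, adjusted p = 5.27e-08), and Nlrp4f, of the subcortical maternal complex, at 85.8 and 93.1 against 49.3 and 41.0 CPM (1.01 ± 0.17, adjusted p = 5.58e-05). Dnmt3l, the partner that activates the de novo DNA methyltransferases, stood at 159 and 160 CPM in the triple knockout and 31.2 and 21.1 CPM in the Mettl3 knockout. Wild type lay between them at 74.8 and 77.6 CPM, and the difference between the knockouts was 2.65 ± 0.17 (adjusted p = 1.40e-21). Of 17 tested genes of DNA methylation and demethylation 5 were higher and none lower, but Dnmt3l was the only one that DESeq2 called.

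Hox genes had a larger median difference than the germline and oocyte lists. They pattern the body axis and are held silent by Polycomb in stem cells. Of 34 listed genes 19 were tested, and 13 were higher and 1 lower in the triple knockout, with a median of 1.58; DESeq2 called 4 higher and 0 lower. Their summed level was 512 and 470 CPM in the triple knockout, 215 and 232 in the Mettl3 knockout, and 360 and 357 in wild type, so the Mettl3 knockout was the lowest of the 6 groups. Hoxa7 stood at 48.4 and 30.1 against 3.29 and 5.86 CPM (2.97 ± 0.40, adjusted p = 9.83e-09), with wild type at 47.7 and 39.2. Hoxc13 stood at 88.9 and 79.4 against 31.2 and 30.5 CPM (1.44 ± 0.19, adjusted p = 8.17e-08). Hoxa5 had 10 and 8 counts in the triple knockout and 0 and 0 in the Mettl3 knockout, at least 6.40-fold more against a floor of 3 counts over the group. Under a stricter filter on low counts 4 of the 13 were still tested and called, as most Hox genes were near that limit.

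Pluripotency genes split. Of 30 tested naive pluripotency genes 9 were higher and 4 lower in the triple knockout (DESeq2: 6 and 1; median 0.13), and 15 had an interval within 1.5-fold. The 4 lower became 2 without Mettl3 knockout replicate A, and the 9 higher 6 without triple knockout replicate A. Fbxo15, an F-box gene of undifferentiated cells, stood at 728 and 699 against 388 and 398 CPM (0.86 ± 0.07, adjusted p = 5.06e-17); wild type stood below both at 223 and 250. Dppa2, which primes the 2-cell programme, stood at 262 and 238 against 102 and 101 CPM (1.30 ± 0.11, adjusted p = 4.24e-16), and Utf1 at 115 and 129 against 62.4 and 60.9 CPM (0.99 ± 0.14, adjusted p = 2.22e-06). Klf2, a naive-state factor, went the other way, at 351 and 346 against 535 and 445 CPM (-0.47 ± 0.08, adjusted p = 4.94e-06). Nanog differed by 0.36 ± 0.07 (867 and 758 against 696 and 580 CPM), a call that was lost without Mettl3 knockout replicate B. Crxos, a homeobox gene that supports self-renewal, was not on the list and was among the clearest single genes. It stood at 251 and 267 CPM in the triple knockout, 36.1 and 42.2 CPM in the Mettl3 knockout and 105 and 111 CPM in wild type (2.71 ± 0.14, adjusted p = 5.69e-27). Of 14 tested formative and primed genes 1 was higher and 1 lower, and DESeq2 called neither. The share called was 43.3% of the naive and 14.3% of the formative and primed genes, against 19.0% of all tested genes.

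Among targets of p53, the calls were higher in the triple knockout with 1 exception. p53 is the stress-activated factor that drives cell cycle arrest and apoptosis. Of 23 tested targets 10 were higher, 1 was lower and 12 were not called (DESeq2: 7 higher and 1 lower), with a median of 0.53 and 10 intervals within 1.5-fold. Among the 10 higher is Btg2, also counted above with the deadenylase genes. Phlda3, an inhibitor of AKT, stood at 137 and 163 against 78.8 and 63.3 CPM (1.11 ± 0.15, adjusted p = 9.05e-09), and Plk2, a checkpoint kinase, at 164 and 142 against 77.2 and 70.3 CPM (1.06 ± 0.13, adjusted p = 1.25e-08). Pmaip1, which encodes the killer protein NOXA, stood at 140 and 136 against 62.4 and 66.8 CPM (1.08 ± 0.14, adjusted p = 3.80e-08). The place of wild type differed among them: it stood at 64.0 and 58.0 CPM for Pmaip1, with the Mettl3 knockout, and at 111 and 90.9 CPM for Plk2, between the knockouts. Against wild type the list had 6 up and 1 down in the triple knockout (over all genes 13.3% up and 11.8% down), and 2 up and 12 down in the Mettl3 knockout (over all genes 15.2% up and 15.1% down). The classic targets Cdkn1a and Bax did not pass the test, and Bax had an interval of -0.16 to 0.23.

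Of 20 heat shock chaperones 7 were higher and 1 lower in the triple knockout (DESeq2: 3 and 0; median 0.21). Hspb1, a small heat shock protein, stood at 186 and 193 against 88.7 and 42.2 CPM (1.62 ± 0.16, adjusted p = 9.04e-11), and Cryab, another, at 68.6 and 71.2 against 32.9 and 31.6 CPM (1.12 ± 0.20, adjusted p = 0.000123). Hspa8, the constitutive HSP70, stood at 1059 and 1013 against 852 and 777 CPM (0.36 ± 0.06, adjusted p = 6.44e-06). Of 36 cell cycle genes 8 were higher and 2 lower (DESeq2: 2 and 0). The share called was 40.0% of the chaperones and 27.8% of the cell cycle genes, against 19.0% of all tested genes. Cdc20, the activator of the anaphase-promoting complex, stood at 237 and 237 against 149 and 156 CPM (0.63 ± 0.10, adjusted p = 1.08e-05).

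Among targets of ATF4, 12 were lower in the triple knockout, 12 were not called and 1 was higher. ATF4 is the factor through which cells answer amino acid shortage and unfolded protein. These are 25 tested targets with a median of -0.49, of which DESeq2 called 4 lower and 0 higher. Trib3, a pseudokinase that restrains this response (chr2:152337422-152344032, minus strand), stood at 32.8 and 43.8 CPM against 141 and 146 CPM in the Mettl3 knockout (-1.90 ± 0.16, adjusted p = 2.30e-15). Chac1, which degrades glutathione, stood at 25.0 and 31.5 against 90.3 and 99.6 CPM (-1.75 ± 0.21, adjusted p = 9.49e-10), and Nupr1, a stress-response cofactor, at 88.9 and 97.2 against 194 and 206 CPM (-1.11 ± 0.12, adjusted p = 6.55e-12). Wild type lay at 63.1 and 49.0 CPM for Trib3, 22.5 and 24.1 for Chac1, and 165 and 159 for Nupr1, on the side of the triple knockout for Chac1 and of the Mettl3 knockout for Nupr1. Psat1, of serine synthesis, was also lower (-0.46 ± 0.09, adjusted p = 5.92e-05). Atf4 itself, which is on the list and among its 12 lower members, stood at 390 and 370 against 478 and 467 CPM (-0.32 ± 0.08, adjusted p = 0.00194). Asns, asparagine synthetase and a standard ATF4 target, differed in the other direction at 783 and 709 against 654 and 616 CPM (0.23 ± 0.07, adjusted p = 0.00762). Neither Atf4 nor Asns was called by DESeq2, and without Mettl3 knockout replicate B the list had 7 lower members. Against wild type the list had 12 up and 0 down in the Mettl3 knockout (over all genes 15.2% up and 15.1% down). In the triple knockout it had 2 up and 4 down (over all genes 13.3% up and 11.8% down).

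The promoters of Chac1 and Nupr1 are shown beside that of Asns, since all hold TGATGNAA, the motif searched for ATF4, while Asns differs in direction. They are again the 250 bases before the RefSeq start (GRCm38.p6), on the gene's strand, with the match in capitals:
Chac1, chr2:119350992-119351241, plus strand: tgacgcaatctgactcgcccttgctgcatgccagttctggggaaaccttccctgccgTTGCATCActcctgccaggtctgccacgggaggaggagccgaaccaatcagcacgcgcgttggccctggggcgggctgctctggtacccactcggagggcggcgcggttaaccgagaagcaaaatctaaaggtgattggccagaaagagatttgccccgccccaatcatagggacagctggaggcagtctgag
Nupr1, chr7:126625471-126625720, minus strand: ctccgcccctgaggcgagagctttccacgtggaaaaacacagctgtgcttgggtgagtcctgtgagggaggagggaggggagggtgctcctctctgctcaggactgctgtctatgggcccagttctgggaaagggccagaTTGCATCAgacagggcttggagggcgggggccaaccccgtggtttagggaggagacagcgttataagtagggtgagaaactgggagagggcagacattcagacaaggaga
Asns, chr6:7693210-7693459, minus strand: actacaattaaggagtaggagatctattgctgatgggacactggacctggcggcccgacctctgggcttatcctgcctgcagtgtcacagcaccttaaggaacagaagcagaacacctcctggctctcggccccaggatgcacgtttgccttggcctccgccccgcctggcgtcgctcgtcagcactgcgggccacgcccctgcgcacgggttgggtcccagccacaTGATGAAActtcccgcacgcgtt
Over the 300-base window TGATGNAA on either strand occurred in 7 of 22 tested targets with a promoter in the table (31.8%) and in 192 of 9050 tested genes (2.12%). It was present in 4 of the 11 lower members with a promoter (Chac1, Nupr1, Pck2 and Trib3), in 2 of 10 that were not called (Atf3 and Pycr1) and in Asns. The matches began 193 bases before the start in Chac1, 110 in Nupr1 and 23 in Asns, on the strand opposite to the gene in Chac1 and Nupr1 and on the gene's own strand in Asns.

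**Figure D3:**
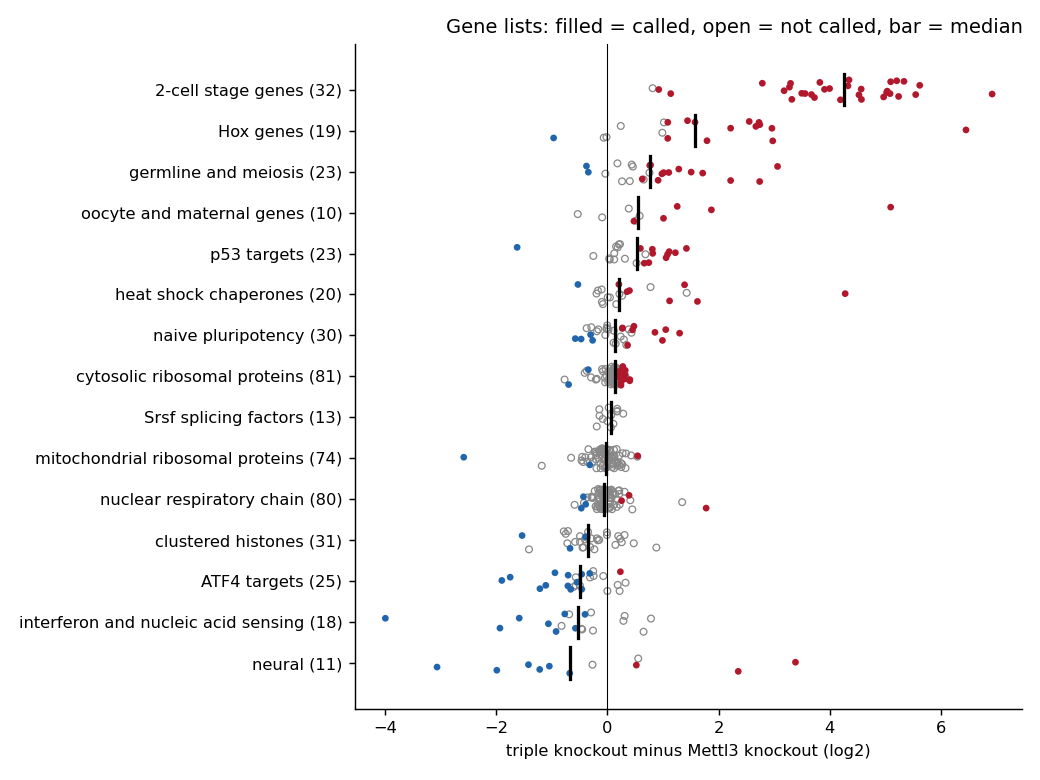
Difference between triple and Mettl3 knockout (log2, horizontal axis) of every tested member of 15 gene lists, with the number tested in brackets; filled points were called (red higher, blue lower in the triple knockout), open points were not, and bars are medians. The 2-cell list lies apart with a median of 4.26, while respiratory chain and mitochondrial ribosomal genes lie around 0.

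The list of interferon-stimulated and nucleic acid sensing genes had no member higher and 8 of 18 tested members lower in the triple knockout (DESeq2: 0 and 3). Its median was -0.52. Zbp1, a sensor of left-handed nucleic acid (chr2:173206612-173218923, minus strand), stood at 4.68 and 2.74 CPM against 54.2 and 64.4 CPM (-3.99 ± 0.37, adjusted p = 5.63e-14). In wild type it stood at 55.9 and 60.6 CPM, and in the single knockouts between 13.3 and 48.1 CPM. Ifitm1 and Ifitm3, membrane proteins that block viral entry, stood at 54.6 and 54.8 against 161 and 166 CPM (-1.58 ± 0.14) and at 186 and 157 against 306 and 279 CPM (-0.76 ± 0.10). All 3 were called by both tools. The 8 calls became 4 without triple knockout replicate B and 4 without Mettl3 knockout replicate B. Against wild type the list had 0 up and 8 down in the triple knockout (over all genes 13.3% up and 11.8% down). In the Mettl3 knockout it had 3 up and 3 down, near the shares over all genes (15.2% up and 15.1% down). Stat2 and B2m did not pass the test (adjusted p = 0.214 and 0.355). The list does not hold every related gene, and genes outside it were not surveyed. Ifitm7, named like Ifitm1 and Ifitm3, was called higher, with 26 counts over the triple knockout and 3 over the Mettl3 knockout. Sp110 was also called higher by both tools (DESeq2 log2 difference 3.38, adjusted p = 9.38e-05).

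The largest single differences outside these lists were in genes nearly silent in 1 of the 2 lines. Adcy2, an adenylate cyclase (chr13:68620043-68999541, minus strand), had 30 and 28 counts in the triple knockout and 0 and 0 in the Mettl3 knockout, at least 20.6-fold more; wild type held 33.3 and 30.3 CPM. Serpina3m, a serine protease inhibitor, had 41 counts against 1, a ratio of 43.7 (95% interval 7.42 to 1768). H2-M10.4, a class Ib histocompatibility gene, stood at 92.0 and 79.4 against 1.64 and 3.51 CPM (4.89 ± 0.35, adjusted p = 5.13e-19), with wild type at 3.60 and 2.67. Genes at 0 in both libraries of 1 group and with 5 or more counts in each of the other 10 numbered 4 for the Mettl3 knockout (Adcy2, Hoxa5, Ms4a10 and Rprl3) and 0 for each other group.

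In the other direction Grin1, a subunit of the NMDA receptor (chr2:25291181-25319187, minus strand), stood at 10.9 and 12.3 CPM in the triple knockout against 87.1 and 125 CPM in the Mettl3 knockout (-3.21 ± 0.26, adjusted p = 8.31e-17), with wild type at 8.11 and 5.35. Hesx1, a homeobox gene of the anterior embryo (chr14:26994416-27002329, plus strand), stood at 15.6 and 24.6 against 110 and 109 CPM (-2.41 ± 0.21, adjusted p = 4.73e-15). Cadps2, which primes secretory vesicles, gave 60.8 and 45.2 against 218 and 226 CPM (-2.08 ± 0.14, adjusted p = 2.87e-21). For these 3 genes wild type and the triple knockout lay together and the Mettl3 knockout stood apart. Nkx6-3, a gut homeobox gene, and Cfp, which encodes properdin, were also low in the triple knockout: they stood at 1.56 and 8.21 against 50.9 and 37.5 CPM (-3.04 ± 0.38) and at 7.80 and 6.84 against 44.3 and 50.4 CPM (-2.69 ± 0.34), and wild type (53.2 and 49.9, and 43.2 and 35.7 CPM) lay near the Mettl3 knockout. Myb, a proto-oncogene of blood progenitors, stood at 6.24 and 6.84 against 37.8 and 35.1 CPM (-2.44 ± 0.39, adjusted p = 9.40e-07).

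**Figure D4:**
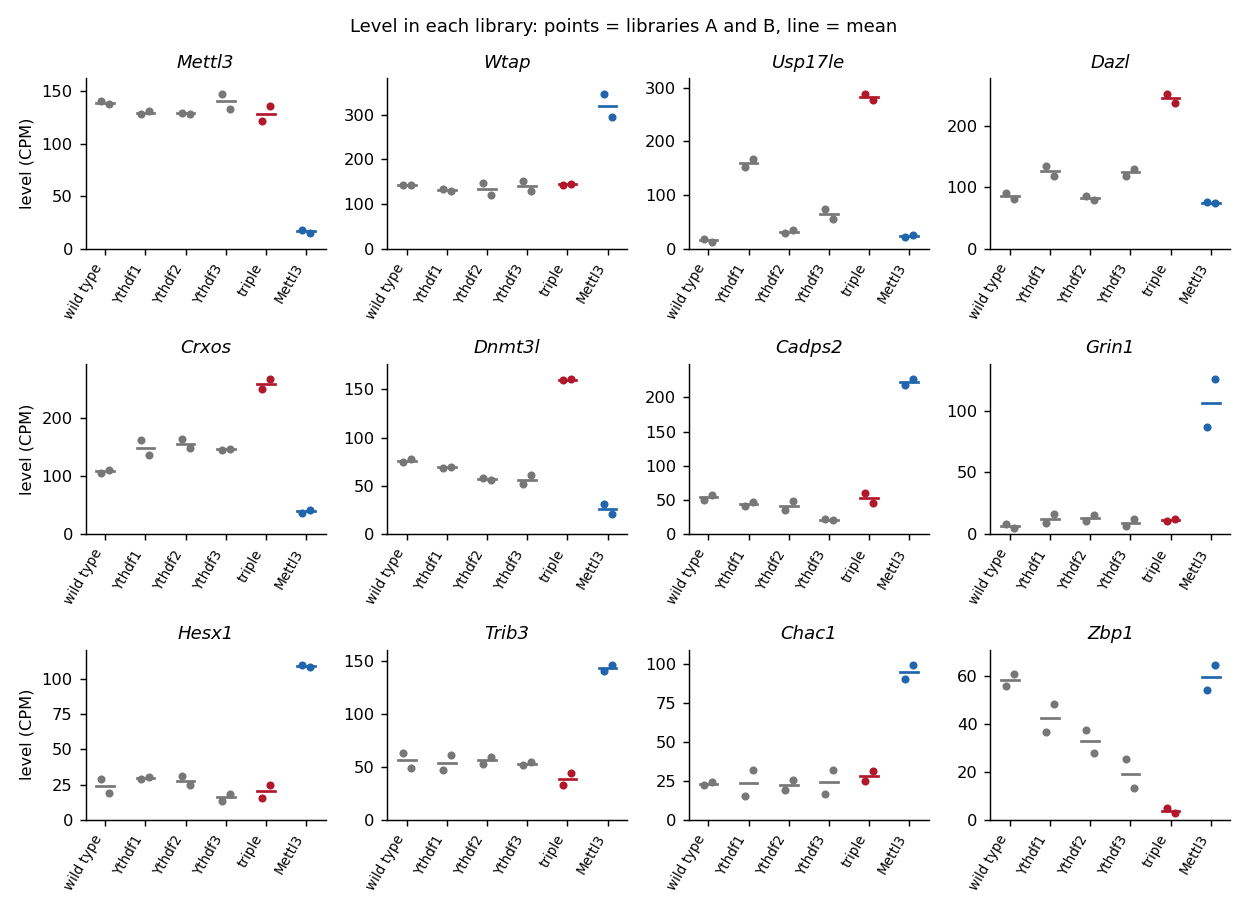
Level (CPM, vertical axes from 0) of 12 genes in each of the 12 libraries, grouped by genotype along the horizontal axes; points are libraries A and B and lines their mean, with the triple knockout in red and the Mettl3 knockout in blue. Wtap, Cadps2, Grin1, Hesx1 and Chac1 stand apart in the Mettl3 knockout, Usp17le and Dazl are highest in the triple knockout, and Crxos and Dnmt3l lie on opposite sides of wild type in the 2 lines.

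Signalling genes were called in both directions, against 19.0% of all tested genes called. The share called was 43.8% of ERK targets, 41.7% of Wnt targets, 40.0% of immediate-early genes and 36.4% of retinoic acid genes. It was 22.2% of Nodal pathway genes, and 3 of 15 BMP and Id genes. Of 16 ERK targets 4 were higher and 3 lower (DESeq2: 2 and 0), with Phlda1 at 98.3 and 67.1 against 16.4 and 32.8 CPM (1.65 ± 0.22, adjusted p = 1.77e-08) and Etv5 within -0.18 to 0.29. Of 12 Wnt targets 3 were higher and 2 lower (DESeq2: 1 and 1): Cdx1, a caudal homeobox gene, stood at 147 and 134 against 52.6 and 65.6 CPM (1.22 ± 0.15, adjusted p = 8.21e-10), and Fzd5, a Wnt receptor, at 79.5 and 73.9 against 138 and 149 CPM (-0.91 ± 0.14, adjusted p = 1.71e-06). Of 11 retinoic acid genes 3 were higher and 1 lower (DESeq2: 1 and 0). Of 18 Nodal pathway genes 2 were higher and 2 lower (DESeq2: 1 and 0), and of 15 BMP and Id genes 1 was higher and 2 lower (DESeq2: 0 and 1). Of the BMP and Id genes DESeq2 called Tgfbi, a secreted matrix protein, at 17.2 and 17.8 against 52.6 and 67.9 CPM (-1.81 ± 0.27, adjusted p = 2.29e-07). Of 15 immediate-early genes 2 were higher and 4 lower, of which DESeq2 called Jund (98.3 and 110 against 184 and 183 CPM, -0.81 ± 0.12, adjusted p = 9.60e-07).

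Markers of other cell types were examined because a culture can hold differentiating cells. Trophoblast markers had 5 of 15 higher and 3 lower (DESeq2: 2 and 2), at summed levels of 928 and 931 CPM in the triple and 783 and 768 in the Mettl3 knockout. Rhox5, a homeobox gene also active in stem cells, stood at 295 and 275 against 96.9 and 92.5 CPM (1.59 ± 0.10, adjusted p = 6.06e-21), and Tfap2c, a trophoblast and germ cell factor, at 74.9 and 67.1 against 168 and 148 CPM (-1.14 ± 0.14, adjusted p = 8.97e-10). Neural markers had 3 of 11 higher and 6 lower (DESeq2: 2 and 2), and 3 lower without triple knockout replicate A, B or Mettl3 knockout replicate B; their sums were 516 and 479 against 494 and 471 CPM. Nefm, a neurofilament, stood at 67.1 and 64.3 against 4.93 and 7.03 CPM (3.38 ± 0.32, adjusted p = 8.03e-14) and Map2, a microtubule protein, at 6.24 and 2.74 against 41.1 and 35.1 CPM (-3.06 ± 0.43, adjusted p = 3.36e-08). Primitive streak, mesoderm and endoderm markers had 3 of 9 higher and none lower (DESeq2: 1 and 0), at 231 and 249 against 158 and 177 CPM. Primitive endoderm markers had 3 of 9 higher and 1 lower (DESeq2: 0 and 0), at 872 and 879 against 815 and 859 CPM, and fibroblast feeder markers 2 of 6 higher and 2 lower (DESeq2: 2 and 0), at 526 and 579 against 531 and 527 CPM. The share called was 53.3% of trophoblast, 81.8% of neural and 33.3% of streak, mesoderm and endoderm markers, against 19.0% of all tested genes. It was 44.4% of primitive endoderm and 66.7% of fibroblast feeder markers, all in short lists. The part of such cells in the differences above was not tested.

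Lists of the basic machinery had shares of called genes below the 19.0% over all tested genes, from 0 for Srsf factors to 17.3% for cytosolic ribosomal proteins. All 13 Srsf splicing factors failed to pass the test in edgeR and in DESeq2, with 12 intervals within 1.5-fold. Of 74 mitochondrial ribosomal proteins 1 was higher and 2 lower, with 60 intervals within 1.5-fold, and of 80 nuclear respiratory chain genes 3 were higher and 3 lower, with 68. DESeq2 called 0 genes of both. Against wild type the mitochondrial ribosomal proteins had 20 up and 2 down in the triple and 23 up and 1 down in the Mettl3 knockout. Over all genes 13.3% were up and 11.8% down in the triple, and 15.2% up and 15.1% down in the Mettl3 knockout. The summed level of the mitochondrial ribosomal proteins was 9850 and 9676, 9730 and 9829, and 8320 and 8357 CPM in triple knockout, Mettl3 knockout and wild type. Of 81 cytosolic ribosomal proteins 12 were higher and 2 lower in the triple knockout, with a median of 0.13 and 70 intervals within 1.5-fold; DESeq2 called 1 each way, Rpl7a (0.40 ± 0.07) and Rps3 (-0.70 ± 0.11). The 12 became 6 without triple knockout replicate A or Mettl3 knockout replicate B. Many have near-identical pseudogene copies, and the same holds for Gapdh, whose libraries differed too much to use (572 and 167 against 18.1 and 17.6 CPM). Of 31 clustered histone genes 0 were higher and 3 lower, with a median of -0.35, and DESeq2 called 0. In this list 4 intervals lay within 1.5-fold, so the few calls do not show equal levels. Against wild type the histone genes had 3 up and 2 down in the triple and 9 up and 1 down in the Mettl3 knockout.

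Imprinted genes, expressed from 1 parental copy, moved in both directions, with 7 of 27 higher and 6 lower (DESeq2: 4 and 1). Plagl1, a zinc finger factor, stood at 112 and 110 against 36.1 and 24.6 CPM (1.91 ± 0.19, adjusted p = 1.64e-12). Peg3, another paternally expressed zinc finger gene, stood at 68.6 and 60.2 against 164 and 156 CPM (-1.31 ± 0.13, adjusted p = 2.43e-12). Wild type stood with the triple knockout for both, at 92.8 and 96.3 CPM and at 71.2 and 67.8 CPM. Col18a1, a basement membrane collagen, stood at 63.9 and 47.9 against 11.5 and 15.2 CPM (2.01 ± 0.26, adjusted p = 3.03e-08). Around them, matrix genes had 5 of 19 higher and 3 lower, cholesterol genes 1 of 22 higher and 3 lower, polycomb genes 2 of 22 each way, glycolysis genes 3 of 20 higher, Gapdh among them, and 1 lower, and apoptosis regulators 3 of 20 higher and 2 lower. DESeq2 called 2 matrix genes higher and 1 lower, 0 cholesterol genes higher and 1 lower, 0 polycomb genes, 2 glycolysis genes higher (Slc2a3 and Gapdh) and 1 apoptosis regulator higher. The 15 snoRNA host and NMD-sensitive transcripts had 0 higher and 1 lower, which was Atf4, and DESeq2 called 0. The share called was 48.1% of imprinted and 42.1% of matrix genes, against 19.0% of all tested genes. Shares nearer to that of all tested genes were 25% of apoptosis regulators, 20% of glycolysis genes and 18.2% each of cholesterol and polycomb genes. The snoRNA host and NMD-sensitive transcripts lay below it, at 6.67%.

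Where wild type lay divides the called genes. Each gene's wild-type level was placed on the line from the Mettl3 knockout to the triple knockout. On this line 2 inner edges were placed evenly, which divide it into 3 equal parts. An outer edge lay past each knockout, by the length of an equal part. Each near group runs from an inner to an outer edge, so with these edges it is wider than the middle group. It also holds genes with both knockouts a little to one side of wild type. This is a description, since the knockouts that define the line also chose the genes. Of the 2272 called genes 773 (34.0%) had wild type near the triple knockout, 565 (24.9%) near the Mettl3 knockout and 488 (21.5%) between the lines. In 302 (13.3%) wild type lay past the outer edge on the side of the triple knockout, so the Mettl3 knockout was further away. In 144 (6.34%) wild type lay past the other outer edge, with the triple further. The inner edges were then moved outward, so that the middle part was as long as both end parts together. The outer edges were drawn in by as much. The last 2 groups then held 365 and 188 and the middle group 707, so the sizes depend on where the edges stand.

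**Figure D5:**
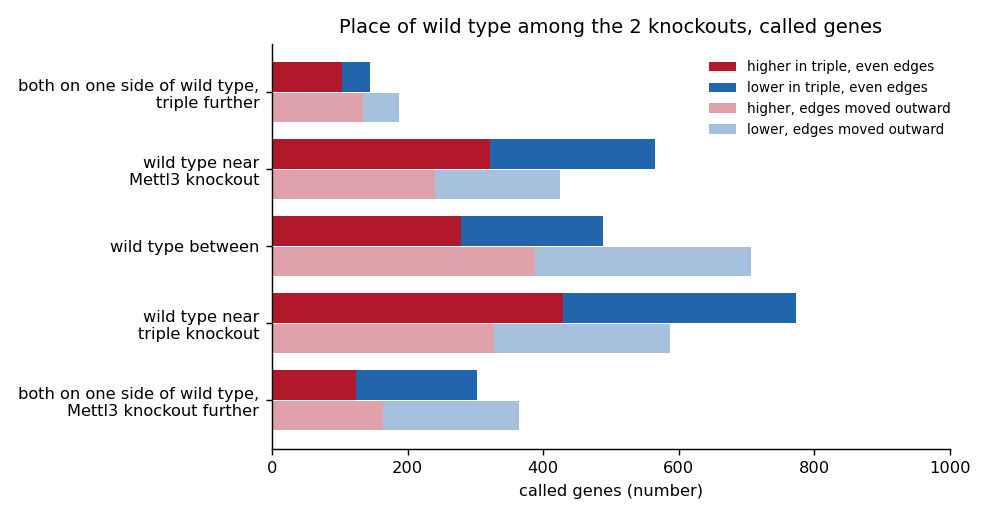
Number of called genes (horizontal axis, from 0) by the place of wild type among the 2 knockouts, split by direction (red higher, blue lower in the triple knockout). Dark bars use the even edges, and pale bars the inner edges moved outward and the outer edges drawn in. With even edges the group with wild type near the triple knockout is the largest, at 773 genes, and with the edges moved outward the group in between is, at 707.

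Named members show what each class holds. Lincenc1, a long non-coding RNA of naive stem cells, stood at 182 and 186 against 21.4 and 25.8 CPM with wild type at 178 and 184, so the Mettl3 knockout alone was low (2.94 ± 0.18, adjusted p = 8.36e-23). Mt1, a metallothionein, stood at 200 and 214 against 473 and 498 CPM with wild type between at 309 and 332 (-1.23 ± 0.08, adjusted p = 2.42e-20), and Sfn, which encodes 14-3-3 sigma, at 60.8 and 58.9 against 187 and 184 CPM with wild type at 87.4 and 89.2 (-1.63 ± 0.13, adjusted p = 7.51e-17). In Sord, sorbitol dehydrogenase, both lines lay above wild type (53.2 and 49.9 CPM), the triple knockout further, at 181 and 197 against 83.8 and 72.6 CPM (1.29 ± 0.13). In A4galt, a glycolipid enzyme, and Ccrn4l, the deadenylase-like Nocturnin, the Mettl3 knockout lay further above wild type: 203 and 201 against 340 and 348 CPM (wild type 149 and 169), and 150 and 140 against 299 and 234 CPM (wild type 55.9 and 58.0). Cdx1 was the mirror case, below wild type (188 and 207 CPM) in both lines and lowest in the Mettl3 knockout.

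The single reader knockouts were read over all called genes as well. Genes higher in the triple than in the Mettl3 knockout had a median difference from wild type of 0.12 in Ythdf1-/-, 0.04 in Ythdf2-/- and 0.13 in Ythdf3-/- cells, and 67.0%, 57.2% and 66.2% of them lay above wild type. Genes lower in the triple knockout had medians of -0.06, 0.01 and -0.09, and 40.0%, 52.4% and 37.7% of them lay above wild type. Over all tested genes the shares were 49.7%, 50.1% and 49.6%. Ythdf2-/- cells thus had the smallest gap between the 2 sets of genes; this ordering was not tested, and the single knockouts share their wild-type libraries.

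Transcript features of the called genes were compared by medians, without a test, for the longest protein-coding transcript of each gene in GENCODE M21, found for 91.2% of the higher and 95.3% of the lower genes. Genes higher in the triple knockout had shorter transcripts, with a median of 2657.5 bases against 3093 for lower genes and 3073 for genes not called. Median last exons were 1114, 1436.5 and 1394.5 bases long in the same order. The GGACT motif, the commonest sequence around m6A sites, occurred 1.08 times per 1000 bases in higher, 1.09 in lower and 1.05 in other genes. The median longest internal exon was 217, 231 and 213 bases. Both sets of called genes thus lay close to the rest in GGACT density, and m6A itself was not measured in these libraries.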

How the data were processed

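Poly(A) RNA of 12 stem cell libraries was sequenced from ScriptSeq v2 libraries. The counts per gene were made and deposited by the authors, on the mm10 build with CASAVA 1.8.2, cutadapt and STAR 2.4.2a, per the submitters' processing notes. Which program counted the reads, with what annotation and strand setting, and whether duplicates were removed is not stated in these sources. The table has 14006 genes.

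One model of 6 groups over the 12 libraries was fitted to the counts with edgeR 4.0.16 (R 4.3.3), so that all groups share 1 estimate of the spread. Low counts were filtered by group with filterByExpr, libraries were scaled by TMM, and the quasi-likelihood fit was robust. The 11951 genes left were tested, with a threshold of 0.05 on Benjamini-Hochberg adjusted p-values. Differences are log2 values computed from the deposited counts. CPM values use the TMM scaling. Genes at 0 in 1 knockout were bounded by a floor of 3 counts over that group; intervals of count ratios are exact binomial at 95%. Floors and these intervals cover counting error only. Alternatives were RLE scaling, no filter, a stricter filter (count minimum 30 in place of 10), DESeq2 1.42.0, the replicate letter as a block, the 2 compared groups alone, each library left out in turn and, added after the data were seen, a Poisson likelihood-ratio test. Libraries with the same letter correlated at 0.0229 between the 2 knockouts, so the letters were not taken as pairs.

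Genes named are the 4 targeted genes, the 12 largest called differences each way without overlap of libraries, above a mean of 4 in log2 CPM (leaving out predicted, mitochondrial, Y-linked and ribosomal pseudogene symbols and Xist), the 4 members of each list that had the lowest p, up to 2 per list with the narrowest interval within 1.5-fold, and 4 per class of the place of wild type; examples were picked from these, a few others were added after their values were seen, and some are not reported here. The comparison, the lists and the members were chosen with earlier results of these data known. Transcript features and positions came from GENCODE M21 (96.4% of symbols found), promoters from RefSeq (GRCm38.p6); GCGGGA and TATAAA were searched too and are not described. The model was tested on simulated counts with known changes, with an outcome not described here. The simulated replicates spread at or above Poisson counting error, unlike the replicates here. The simulation thus does not check the fitted spread.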

Additional observations from a re-analysis of the deposited data

How the results depend on the processing

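None of the 168 called named genes changed direction under any setting run. Among those not called, leaving out 1 library moved Ythdf3 between -0.69 and 0.27 and Pou5f1 between -0.10 and 0.02. The counts of called genes moved most with DESeq2, to 678 for triple against Mettl3 knockout (65.2% higher, against 55.3% with edgeR), 785 for the triple knockout and 1241 for the Mettl3 knockout against wild type. The median dispersion was 0.02595 in DESeq2, where 97.4% of the genes' own estimates were at the minimum, and 9.766e-05 as the trend in edgeR. Leaving out 1 library gave 1330 to 1580, 1725 to 2195 and 2285 to 2780 called genes for the same 3 comparisons. RLE scaling, no filter, the stricter filter, the compared groups alone and the Poisson test, the last chosen after seeing the data, kept each count within 1.5 times.

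With the replicate letter as a block, 2275, 3008 and 3630 genes were called. Same-letter libraries correlated at 0.0045 to 0.186 over the 15 pairs of groups. All 15 were positive and 3 exceeded 0.1, but not every pair did, and no label says that a letter marks a shared day or culture, so the letters were not treated as pairs. Of 168 named genes called, 104 were called without each of the 4 knockout libraries in turn and 100 by DESeq2. With 2 libraries a side of 618349 to 859558 counts, depth limits the precision for genes of low level. No detection limit was computed.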

Other observations

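Tex101, a surface protein of germ cells, was among the larger germline differences, at 35.9 and 30.1 CPM in the triple knockout against 4.93 and 4.69 CPM in the Mettl3 knockout (2.74 ± 0.44), with wild type at 7.21 and 3.57. Rrm2b, which makes deoxynucleotides after DNA damage, was the 1 p53 target lower in the triple knockout, at 18.7 and 20.5 against 67.3 and 56.2 CPM (-1.62 ± 0.25), and was named after its values were seen. Kcnq1ot1, the imprinted non-coding RNA, had 1 count over the triple knockout libraries and stood at 19.7 and 17.6 CPM in the Mettl3 knockout; DESeq2 did not call it, and it was also named after its values were seen.

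By chromosome, the median difference between the knockouts ran from -0.056 on chromosome 12 to 0.066 on X.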
